A study of Mus musculus with 8 samples.

Results

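The Fox, Sox, Gata, Tbx and Klf promoters were taken from the table of promoter methylation as all genes whose symbol begins with one of these family names followed by a member number, without *Tbx21*. This gave 62 of 9224 genes and 2770 of 203645 measured cytosines, with 26 Fox, 14 Sox, 13 Klf, 6 Tbx and 3 Gata genes. Among them were the noncoding RNA genes *Foxo6os* and *Tbx3os2*, typed in GENCODE release M21 as antisense and lincRNA, and the X-linked genes *Foxo4* and *Sox3*. The measurements came from germline stem (GS) cells, cultured mouse spermatogonia with stem cell activity, by reduced representation bisulfite sequencing, in which DNA is cut with MspI at CCGG and the share of reads that keep a cytosine at a CpG is its methylation level. All 8 lines were labelled as wild type and B6, and the labels name ICSI as the only treatment. Control-F1 lines 29, 37, 44 and 45 came from mice sired by natural mating, and ICSI-F1 lines 11, 17, 20 and 21 came from mice made by intracytoplasmic sperm injection (ICSI) with wild-type sperm. By the study's methods the sperm donors for ICSI were green mice, which carry an *Egfp* transgene. The lines had been grown from CD9-expressing spermatogonia of mature testes, with 1 library per line. The line numbers recur among the numbers of individual F1 mice in the study's supplement, which ties each line to a mouse by its number only. The age of the mice was not given in the sources used here.

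These 5 families are transcription factors that bind DNA through a forkhead (Fox), HMG (Sox), GATA zinc finger (Gata), T-box (Tbx) or Krüppel-type zinc finger (Klf) domain. Many of them direct the formation of one lineage and are silent elsewhere, and in most tissues their promoters lie in CpG islands that stay unmethylated whether or not the gene is used. Dense promoter methylation is known to accompany stable silencing, and sites near an island edge (shores, then shelves) are methylated more variably than the island itself. *Foxo1* is used by spermatogonia themselves, *Sox2* and *Klf4* belong to the pluripotency network, and *Sox10*, *Gata4* and *Foxa2* belong to neural crest, heart and gonadal somatic cells, and endoderm.

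Most of these promoters were nearly unmethylated in every GS cell line. The median promoter level over the 8 lines was 5.38%, against 5.64% over all 9224 promoters, and 48 of 62 promoters were under 10%. *Foxo6os*, *Sox10* and *Gata4* alone were above 80%. A further 5 promoters lay between 20.4% and 31.3%, *Foxd1*, *Foxa2*, *Tbx20*, *Sox15* and *Tbx4*, so that 8 of 62 (12.9%) had a level of 20% or more, against 15.7% of all promoters. The median of the 26 Fox promoters was 4.97%, of the 14 Sox promoters 5.73% and of the 13 Klf promoters 4.68%. The 6 Tbx and the 3 Gata promoters had medians of 14.2% and 13.6%, and 30.3% and 6.67% of their sites lay in islands, against 92.3%, 92.4% and 96.5% for Fox, Sox and Klf. With sites in CCGG left out, the medians were 4.41% for Tbx and 13.4% for Gata, against 1.99%, 2.55% and 1.95% for Fox, Sox and Klf.

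**Figure D1:**
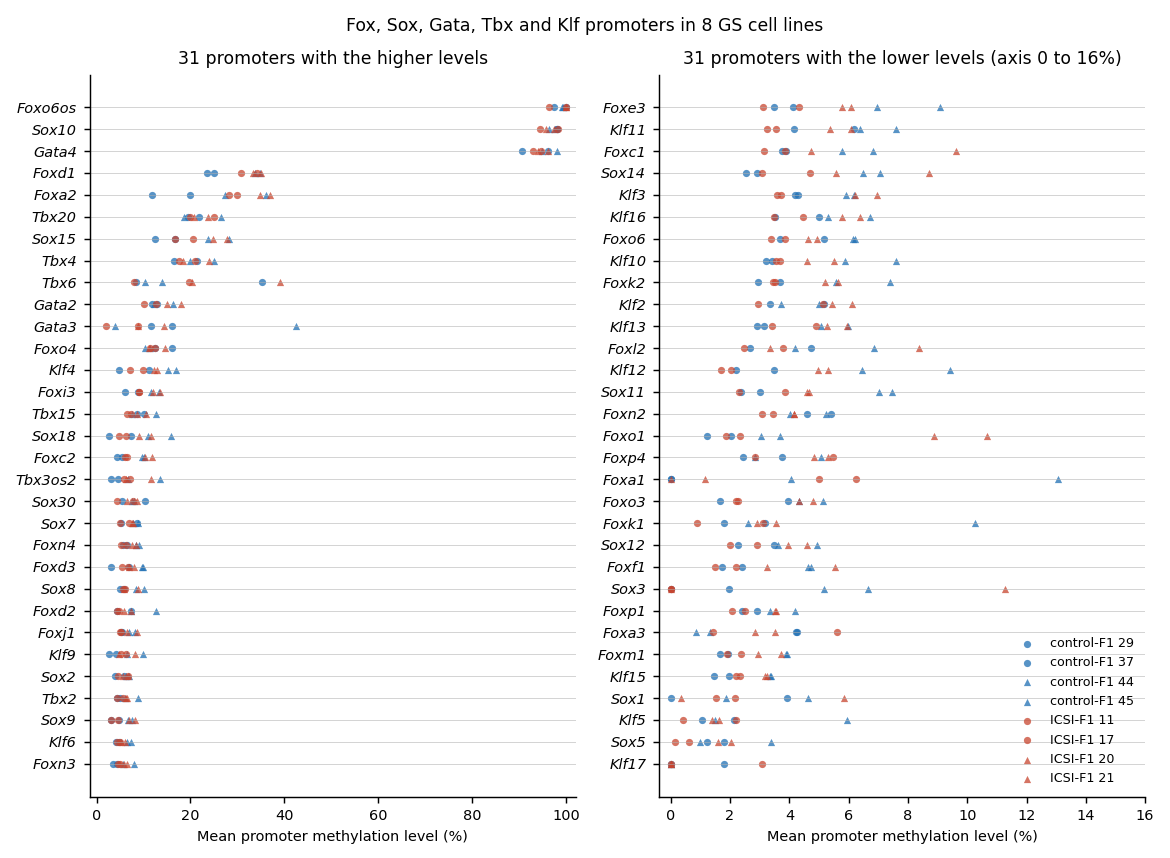
Mean promoter methylation level (percent, x axis) of the 62 genes (y axis, ordered by level) in each line; blue, control-F1; red, ICSI-F1; circles, lines 29, 37, 11 and 17; triangles, lines 44, 45, 20 and 21. The axis of the right panel ends at 16%. *Foxo6os*, *Sox10* and *Gata4* sit above 90% in all 8 lines, and over all its measured sites no promoter separates the groups.

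The sequences that carry the main patterns are printed from the plus strand of GRCm38, whose coordinates are those of the authors' mm10. Capitals mark each measured CpG, and the whole CCGG where the measured CpG lies in it. The first 3 stretches are methylated in all lines, and the *Tbx6* stretch and the upstream *Foxa2* stretch hold cytosines that differ between lines. The *Foxa2* stretch near the start is shown for contrast in its CpGs outside CCGG. Its CCGG holds a plus-strand cytosine that ran from 13.3% to 100% across lines. The *Klf4*, *Gata2* and *Foxd1* stretches hold single cytosines that stand far above their neighbours.
Sox10, chr15:79166048-79166187: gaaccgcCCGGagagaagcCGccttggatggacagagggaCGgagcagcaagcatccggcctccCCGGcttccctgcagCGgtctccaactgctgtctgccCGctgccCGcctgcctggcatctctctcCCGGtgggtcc
Gata4 at the listed start, chr14:63271691-63271731: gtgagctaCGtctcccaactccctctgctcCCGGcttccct
Gata4 further upstream, chr14:63272600-63272654: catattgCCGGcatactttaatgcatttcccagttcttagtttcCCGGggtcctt
Foxa2 near the start, chr2:148046997-148047050: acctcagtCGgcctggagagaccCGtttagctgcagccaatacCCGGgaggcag
Foxa2 further upstream, chr2:148047393-148047539: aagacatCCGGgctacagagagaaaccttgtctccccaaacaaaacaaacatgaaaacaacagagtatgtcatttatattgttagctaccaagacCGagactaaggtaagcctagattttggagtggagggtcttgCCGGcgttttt
Tbx6, chr7:126781099-126781334: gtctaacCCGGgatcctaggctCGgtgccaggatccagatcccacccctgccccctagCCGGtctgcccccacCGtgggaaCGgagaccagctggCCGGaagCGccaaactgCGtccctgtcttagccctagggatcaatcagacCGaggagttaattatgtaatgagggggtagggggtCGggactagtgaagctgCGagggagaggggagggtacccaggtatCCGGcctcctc
Klf4, chr4:55533031-55533197: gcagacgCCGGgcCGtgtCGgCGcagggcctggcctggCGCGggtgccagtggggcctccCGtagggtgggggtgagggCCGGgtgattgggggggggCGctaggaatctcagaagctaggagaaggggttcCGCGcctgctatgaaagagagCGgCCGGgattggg
Gata2, chr6:88193592-88193643: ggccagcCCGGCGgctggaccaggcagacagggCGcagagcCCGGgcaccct
Gata2 near the start, chr6:88193806-88193823: accatagCCGGtctcggg
Foxd1, chr13:98353933-98353983: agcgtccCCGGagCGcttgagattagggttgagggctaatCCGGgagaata

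The fully methylated promoters were *Foxo6os*, *Sox10* and *Gata4*. *Sox10* (ENSMUSG00000033006), a neural crest and glial factor, was measured at 12 cytosines, all in a CpG shelf 816 to 939 bp upstream of its listed start at position 79165240 of the minus strand. Its promoter level was 98%, 97.9%, 97.7% and 96.4% in control-F1 lines 29, 37, 44 and 45, and 94.4%, 98.2%, 97.4% and 95.7% in ICSI-F1 lines 11, 17, 20 and 21. The groups overlapped, at 97.5% ± 0.738 and 96.4% ± 1.71 (SD, n = 4), and all 12 of these cytosines lie in exons of *Gm10863*, an antisense transcript in GENCODE release M21. The listed start of *Sox10* is its outermost, and its other annotated transcripts start 750 to 766 bp downstream of it. The measured cytosines lie over 1 kb upstream of those starts, so they do not cover the promoter of these transcripts.

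*Gata4* (ENSMUSG00000021944), needed in heart and in gonadal somatic cells, was measured at 6 cytosines, with means of 94.8% ± 3.14 for control-F1 and 94.4% ± 1.34 for ICSI-F1 (SD, n = 4). The lowest line was 37 at 90.6% and the highest was 44 at 98%. The authors' start, position 63271692 on chromosome 14, is that of the transcript *Gata4-204*, the outermost of 6 annotated transcripts. The starts of *Gata4-201* and *Gata4-202* lie 26421 and 26444 bp downstream of it, so the measured stretch does not cover the promoter of these transcripts. *Foxo6os* (ENSMUSG00000084929) was measured at 2 cytosines, both in CCGG, where the level was 96.3% to 100% in all lines. The partner of each on the other strand was not measured. *Foxo6*, on the opposite strand of the same chromosome, had 4.75% over 144 cytosines.

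Within these promoters, the level of a cytosine differed with its place relative to CpG islands and with whether it lay in CCGG, the MspI sequence, which reads the same on both strands. CCGG held 424 of 2770 sites (15.3%, against 17.1% of the sites of all promoters). In CpG islands, the mean over the 8 lines was 23.2% at 333 sites in CCGG and 2.05% at 2140 other sites, and the corresponding values over all promoters were 22.4% and 2.09%. A mean level of 50% or more was reached by 40 of the 333 island sites in CCGG (12%) and by 0 of the 2140 others. Outside islands the means were 33.2% at 91 sites in CCGG and 9.69% at 206 others. The highest of these were in shelves, with 63.3% at 21 sites in CCGG and 43.4% at 28 others, from 6 genes. Over all promoters the shelf means were 37.7% in CCGG and 12.3% at others. Of the 28 shelf sites outside CCGG, *Sox10* held 8 with a mean of 97.8% and *Gata4* held 2 with 95.2%.

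The strands of a CpG also differed more in CCGG. Both cytosines of a CpG were measured at 991 CpGs outside CCGG, where the median difference between strands was 1.04 percentage points and the largest was 8.64. At 141 CpGs in CCGG the median was 19.7 points, and 70 of them (49.6%) differed by over 20 points. Over all promoters the median in CCGG was 21.1 points, and 5561 of 10917 CpGs (50.9%) differed by over 20 points. Of 44 CpGs in CCGG with 1 strand at 50% or more, in 32 promoters, the other strand was under 10% at 35, and both strands were at 90% or more at 2, in *Gata4* and *Sox10*. CCGG is where the enzyme cuts and where fragments end, and end repair there adds cytosines that RRBS trimming is meant to remove. Whether such added cytosines remained in the reads was not tested, so a level in CCGG may not be a methylation level of the cells. This applies to each CCGG value above and below, and to promoter levels that include CCGG, among them that of *Foxo6os*.

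**Figure D2:**
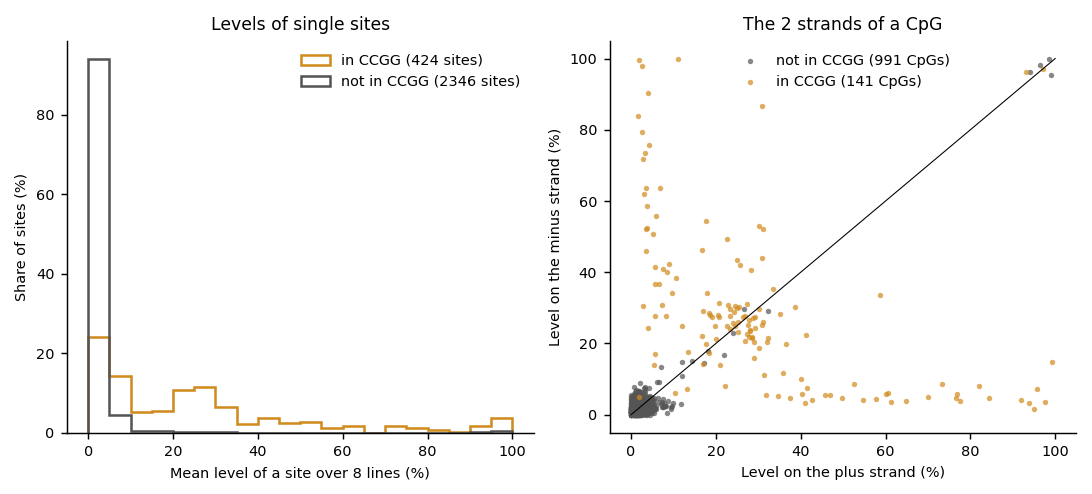
Left, the share of sites (percent, y axis) in 5-point bins of their mean level over the 8 lines (percent, x axis), for the 424 sites in CCGG and the 2346 others. Right, the level of the minus strand against that of the plus strand (percent) at CpGs measured on both; CpGs outside CCGG lie along the diagonal, and many in CCGG lie along one axis, high on 1 strand only.

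Single high cytosines of this kind set several of the promoter levels. In *Klf4* (ENSMUSG00000003032), a reprogramming factor, the minus-strand cytosine at position 55533040 had 75.6% and the plus-strand cytosine at 55533188 had 76.6% over the 8 lines, while their partners on the other strand had 4.31% and 4.81%. The 16 *Klf4* cytosines outside CCGG had a mean of 2.61%. In *Foxd1* (ENSMUSG00000078302), a kidney stroma and retina factor, 1 of 3 measured cytosines was at 90.1% and the other 2 were at 3.57% and 0.227%. *Tbx20*, a heart factor, had a plus-strand cytosine at 95.7% whose partner was at 7.18%, and *Klf10* had a minus-strand cytosine at 99.7% with a partner at 1.85%.

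With sites in CCGG left out, an analysis chosen after the data had been seen, 2 of 61 promoters had a level of 20% or more, *Sox10* at 97.8% and *Gata4* at 95.2%, against 9.22% of 8480 promoters. *Foxo6os* had no other site. *Tbx4* (ENSMUSG00000000094), a hindlimb and lung factor, had 14.6% over 18 cytosines, and its lines ran from 7.90% in control-F1 line 29 to 20.1% in control-F1 line 45. *Gata3* had 13.4%, *Foxa2* 12.4% and *Tbx6* 11.7%. A level under 5% was found at 55 of the 61.

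**Figure D3:**
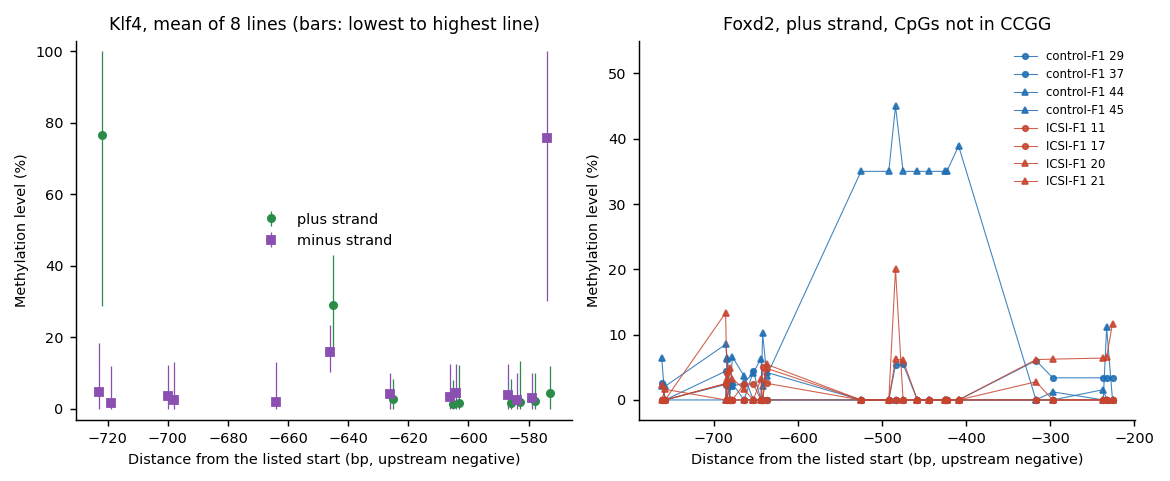
Left, *Klf4* methylation level (percent, y axis) by distance from the listed start (bp, x axis), mean of 8 lines with bars from the lowest to the highest line; 1 plus-strand and 1 minus-strand cytosine in CCGG stand at 76.6% and 75.6%. Right, the plus strand of *Foxd2* outside CCGG in each line, where control-F1 line 44 alone has 35% to 45% over 9 neighbouring cytosines.

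Control-F1 and ICSI-F1 lines were then compared, to ask whether conception by ICSI left a mark at promoters of lineage factors. The mean level over the 2770 sites was 5.00%, 5.13%, 7.88% and 7.23% in control-F1 lines 29, 37, 44 and 45, and 4.66%, 5.14%, 7.48% and 6.97% in ICSI-F1 lines 11, 17, 20 and 21. The group means were 6.31% ± 1.46 and 6.06% ± 1.37 (SD, n = 4), a difference of −0.245 percentage points that was smaller than the spread between lines. Over all promoter sites the difference was −0.147 points. The sign turned when control-F1 line 44 or 45 or ICSI-F1 line 11 or 17 was left out, with 0.279 points without line 44, the largest of these.

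The lines split by library set rather than by group. Set 1 comprised lines 29, 37, 11 and 17, and set 2 comprised lines 44, 45, 20 and 21. The sets were formed here: the labels name no set, but fill their description and source fields differently for each, and the sets differ in depth, with a median unscaled coverage over all sites of 41 to 62 reads in set 1 and 69 to 82 in set 2. The mean over the 2770 sites was 4.66% to 5.14% in set 1 and 6.97% to 7.88% in set 2, and at sites outside CCGG it was 1.39% to 2.19% and 3.13% to 4.39%. Over the sites of all promoters, in and outside CCGG, the mean was 6.14% to 6.88% in set 1 and 8.24% to 9.26% in set 2. All 4 lines of set 2 lay above all 4 lines of set 1 at 29 of 62 promoters (46.8%, against 27.7% of all promoters), and the reverse was seen at 0 of 62 (0.152% of all promoters). Outside CCGG the former count was 20 of 61 (32.8%), against 23.7% of all promoters. The 62 promoters have a median of 35 sites, against 13 over all promoters, and whether this number affects these shares was not tested. Each set holds 2 lines of each group, and the ICSI-F1 minus control-F1 difference was −0.162 points within set 1 and −0.329 points within set 2.

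No single promoter passed the test between the groups. limma on the arcsine square root of the promoter mean, adjusted by the Benjamini-Hochberg method over all 9224 promoters, called 0 of 62 at an adjusted p under 0.05 (0% of all promoters), and the lowest adjusted p was 1. At an unadjusted p under 0.05 it also gave 0 of 62, against 3.14% of all promoters (1.63% higher and 1.52% lower in ICSI-F1 lines), and the exact permutation test of each promoter gave 0 as well. With the library set as a covariate limma gave 3 of 62 at an unadjusted p under 0.05, against 495 of all 9224 promoters. The group levels failed to overlap at 0 of 62 promoters, where over all promoters 0.672% were fully higher and 0.791% fully lower in ICSI-F1 lines. ICSI-F1 lines were lower on average at 39 of 62 promoters (62.9%, against 55.4% of all promoters), with a median difference of −0.23 points against −0.16 points. The difference was under 2 points at 55 of 62 and exceeded the pooled within-group SD at 5, *Foxa2*, *Foxo1*, *Klf11*, *Foxo6* and *Foxn2*. Neither count was made over all promoters, so whether it is particular to the 62 is not known.

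**Figure D4:**
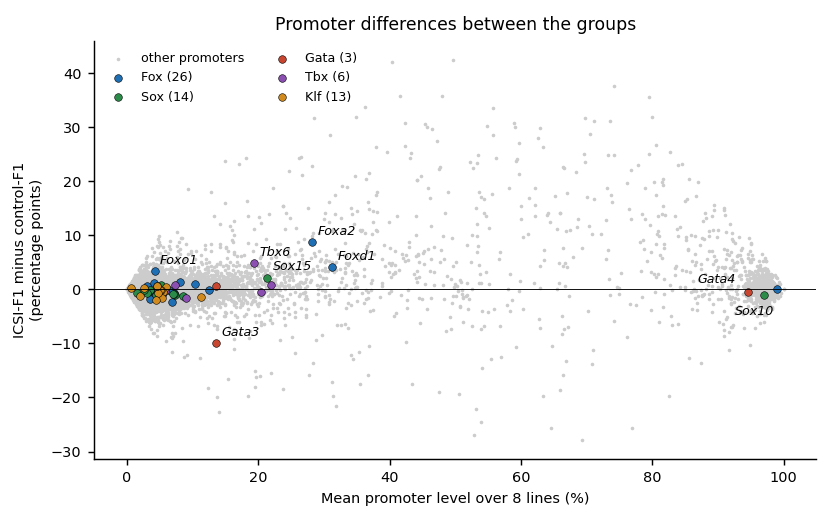
ICSI-F1 minus control-F1 difference in percentage points (y axis) against the mean promoter level over 8 lines in percent (x axis), for the 62 promoters by family and, in grey, all others. *Gata3* (−9.94) and *Foxa2* (8.71) lie farthest from 0 among the 62, and other promoters of intermediate level reach larger differences.

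The largest differences were at *Gata3* and *Foxa2*. *Gata3* (ENSMUSG00000015619), a T cell and trophectoderm factor, was measured at 6 cytosines of a shore, with 16.1%, 11.6%, 42.4% and 3.90% in control-F1 lines 29, 37, 44 and 45. In ICSI-F1 lines 11, 17, 20 and 21 it had 2.08%, 8.82%, 8.89% and 14.4%. The groups overlapped and line 44 stood above all other lines. The difference was −9.94 points (18.5% ± 16.7 against 8.56% ± 5.06, SD, n = 4, exact two-sided permutation p = 0.343), and it was −1.96 points without line 44.

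*Foxa2* (ENSMUSG00000037025), a pioneer factor of endoderm, had 20%, 11.8%, 36.2% and 27.3% in control-F1 lines 29, 37, 44 and 45, and 28.3%, 30.0%, 34.9% and 37% in ICSI-F1 lines 11, 17, 20 and 21. Control-F1 lines 29 and 37 were the lowest of the 8, and line 44 lay among the ICSI-F1 lines. The difference was 8.71 points (23.8% ± 10.4 against 32.5% ± 4.09, SD, n = 4, exact two-sided permutation p = 0.171; limma adjusted p = 1). It was 13.2 points within set 1 and 4.22 points within set 2. Without control-F1 line 44 it was 12.8 points with an exact permutation p of 0.0286, the smallest that 3 lines against 4 allow. Line 44 was the only control-F1 line among the ICSI-F1 lines, so leaving it out removed the overlap of the groups. Among the 24 named genes no other alternative gave an exact permutation p under 0.05.

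The *Foxa2* promoter is not evenly methylated. The 4 cytosines outside CCGG in the stretch near the start had at most 6.69% in any line on average, as the printed sequence near the start shows in its first CpGs. The single CpG outside CCGG in the upstream stretch, followed up after its values had been seen, had a mean over both strands of 11.6%, 11.7%, 35.8% and 34.2% in control-F1 lines 29, 37, 44 and 45. The ICSI-F1 lines 11, 17, 20 and 21 had 44.6%, 30.6%, 35.2% and 41.8% there. The level was thus low in the 2 control-F1 lines of set 1 and similar in the other 6 lines (23.3% ± 13.5 against 38.1% ± 6.33, SD, n = 4, exact two-sided permutation p = 0.143).

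*Tbx6* (ENSMUSG00000030699), which directs presomitic mesoderm, had the largest within-group SD of the 62 promoters when pooled over both groups, at 12.6 points, while the largest SD of a single group was that of *Gata3* in control-F1 lines. Its level was 35.3%, 8.39%, 10.4% and 13.9% in control-F1 lines 29, 37, 44 and 45, and 19.6%, 8.05%, 20.3% and 39.1% in ICSI-F1 lines 11, 17, 20 and 21. A high line and a low line were present in each group. The group means were 17% ± 12.4 and 21.8% ± 12.8 (SD, n = 4), with a difference of 4.81 points (exact two-sided permutation p = 0.571) that was −7.98 points within set 1 and 17.6 points within set 2.

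At *Tbx6*, lines 29 and 21 were also the highest of their groups at the 11 cytosines outside CCGG, with 25.8%, 1.64%, 4.04% and 3.71% in control-F1 lines and 10.1%, 1.09%, 14.4% and 33.1% in ICSI-F1 lines, in the order above. Over the 6 such cytosines of the 300 to 400 bp interval, measured on both strands, lines 29 and 21 had 36.4% and 34.4% and line 17 had 2.00%. Between 150 and 300 bp, where only the plus strand was measured at 5 such cytosines, line 21 had 31.5%, lines 29 and 20 had 13.1% and 12.9%, and lines 37, 11 and 17 had 0%. None of these cytosines lies in an island, shore or shelf.

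**Figure D5:**
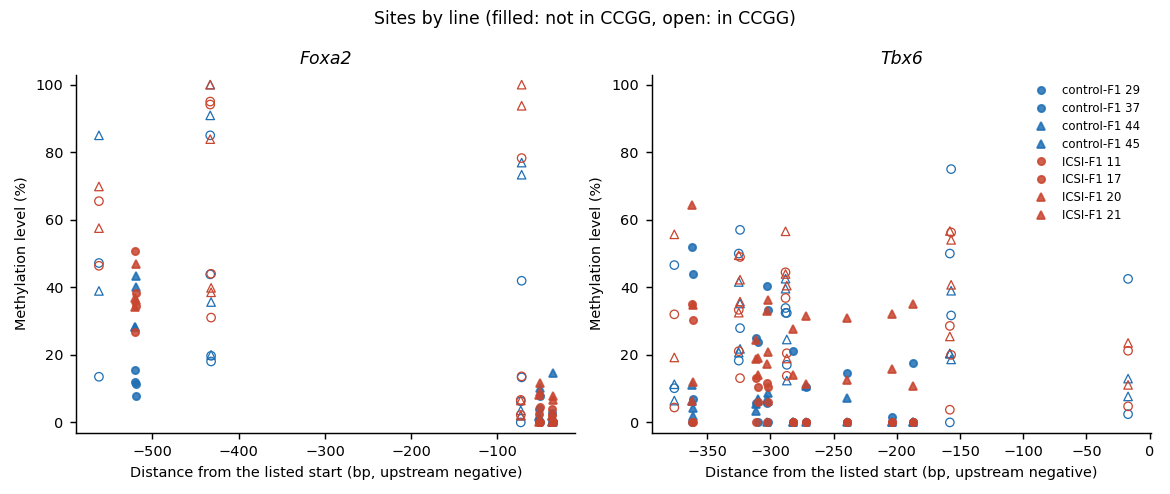
Methylation level (percent, y axis) of each cytosine by distance from the listed start (bp, x axis) in *Foxa2* and *Tbx6*, by line; filled symbols, not in CCGG; open symbols, in CCGG. At *Tbx6*, control-F1 line 29 and ICSI-F1 line 21 are the highest lines at most cytosines, and at *Foxa2* control-F1 lines 29 and 37 lie below the others about 520 bp upstream.

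A cytosine was called hypermethylated or hypomethylated when the group means differed by over 20 percentage points and no single ICSI-F1 line fell across the mean of the controls. The threshold is the study's, while the exclusion is one reading of its short description, so the calls need not be those of the study. By this rule 4 of 2770 cytosines were hypermethylated (0.144%, against 0.274% of all sites) and 2 were hypomethylated (0.0722%, against 0.0506%). Of these 6 cytosines, 5 lie in CCGG. No cytosine separated all ICSI-F1 lines from all control-F1 lines past this difference, and without control-F1 line 37 or ICSI-F1 line 17 the count was 3 or 11. In *Foxa2*, a plus-strand cytosine at position 148047041 also passed 20 points, but line 11 lay at 13.6%, under the control-F1 mean of 51.4%.

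The largest of these differences was in *Gata2* (ENSMUSG00000015053), a blood stem cell factor, at the minus-strand cytosine 88193601 of chromosome 6, 290 bp upstream of the start. The level was 58.8%, 21%, 55.8% and 68.6% in control-F1 lines 29, 37, 44 and 45, and 73.7%, 56.9%, 75% and 100% in ICSI-F1 lines 11, 17, 20 and 21. Line 37 was low and line 21 high, and the groups overlapped. The means were 51.0% ± 20.8 and 76.4% ± 17.8 (SD, n = 4), a difference of 25.4 points (exact two-sided permutation p = 0.0857) that was 25.4 points within set 1 and 25.3 points within set 2. With 26 to 49 reads per line once the authors' scaling was undone, the widest 95% Wilson interval spanned 32.4 points, which covers counting error only. The *Gata2* promoter as a whole differed by 0.652 points.

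At the *Klf4* plus-strand cytosine 55533188 the control-F1 lines had 69.0%, 28.8%, 75% and 91.7%, and the ICSI-F1 lines had 75.8%, 100%, 96.6% and 75.6%, in the same order of lines. Line 37 stood below all others. The difference of 20.9 points (66.1% ± 26.6 against 87% ± 13.1, SD, n = 4, exact two-sided permutation p = 0.143) was 39.0 points within set 1 and 2.75 points within set 2. The *Tbx3os2* cytosine at position 119691342 of chromosome 5, outside any island, had 20.6%, 21.2%, 25.0% and 46.8% in control-F1 lines and 33.3%, 60.5%, 61.5% and 51.6% in ICSI-F1 lines. Control-F1 line 45 lay among the ICSI-F1 lines, and the difference was 23.3 points (exact two-sided permutation p = 0.0571). The *Foxn3* cytosine at position 99563888, also in an exon of the divergent RNA gene *Gm26839*, went from 39.4% ± 15.3 to 59.4% ± 15.2 (SD, n = 4, exact two-sided permutation p = 0.171).

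Both hypomethylated cytosines were in *Gata3*, on the plus strand. At position 9890346, in CCGG, the control-F1 lines had 22.8%, 35.7%, 36.7% and 4.00%, and the ICSI-F1 lines had 0%, 1.67%, 4.76% and 9.52%. Control-F1 line 45 lay with the ICSI-F1 lines. The difference was −20.8 points (exact two-sided permutation p = 0.0857), and the 0 of 32 reads in line 11 allow a level of up to 9.38% by the limit of 3 counts and up to 10.7% by the 95% Wilson interval. At position 9890540, the only one of the 6 outside CCGG, line 44 had 87.1% and the other 7 lines had 0% to 28.1%. The difference there was −20.7 points (exact two-sided permutation p = 0.371).

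Tested as reads, no cytosine was called. A quasi-binomial logistic model with the dispersion moderated by limma and Benjamini-Hochberg adjustment over all sites gave 0 of 2652 testable cytosines at an adjusted p under 0.05 (0% of all sites), and 0 with the dispersion of each site taken alone. At an unadjusted p under 0.05 the moderated model gave 59 cytosines higher and 129 lower in ICSI-F1 lines, which are 2.22% and 4.86%, against 2.6% and 4.47% of all 196818 sites tested. The adjusted p of the 7 cytosines past 20 points was 0.665 to 0.753.

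Blocks in which 1 line stood above the median of the others recurred, in 10 promoters with island sites and in *Tbx6*, which has none. A block was taken as 4 or more neighbouring cytosines of 1 strand outside CCGG with at least 15% in 1 line while the median of the other lines was at most 5%, a definition made after the data had been seen. There were 16 such blocks in 11 promoters, of which control-F1 lines held 9 and ICSI-F1 lines held 7. Blocks were not counted over all promoters, and the 62 promoters have a median of 35 sites against 13 over all promoters. Methylated reads per cytosine of a block ran from 2, in *Sox9* in line 20 and *Klf3* in line 37, to 20 in *Tbx6* in line 21. Another line reached up to 21.2% at a cytosine of a block, in *Tbx6*. Line 44 held 6 of them, line 20 held 4, lines 37 and 21 held 3 each, and lines 29, 45, 11 and 17 held 0. Set 2 thus held 13 of the 16.

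*Foxd2* (ENSMUSG00000055210), an embryonic mesenchyme factor, had a block in line 44 between positions 114909282 and 114909398 of chromosome 4. There, within an exon of the divergent RNA gene *Foxd2os*, 9 plus-strand cytosines had 35% to 45%, from 6 to 8 methylated reads each, while the opposite strand had at most 12.1% and the other lines had a median of 0%. In *Foxk1*, 12 plus-strand cytosines of line 44 had 15.7% to 17.8%. The level was even along some blocks, as in *Sox7* in line 37 with 23.5% at all 6 cytosines, and not along others, as in *Sox9* in line 20 with 15.4% to 30.8%. For the blocks of *Foxc1*, *Sox7* and *Tbx6* the opposite strand was not measured. The reads carried no molecular identifiers, so copies of 1 molecule and separate molecules cannot be told apart.

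*Foxo1* (ENSMUSG00000044167), needed for spermatogonial stem cell maintenance, showed such blocks in both ICSI-F1 lines of set 2. Its promoter level was 1.22%, 2.04%, 3.67% and 3.05% in control-F1 lines 29, 37, 44 and 45, and 1.85%, 2.33%, 10.7% and 8.86% in ICSI-F1 lines 11, 17, 20 and 21. Lines 20 and 21 stood above the rest, while lines 11 and 17 lay among the control-F1 lines. The difference was 3.44 points (2.49% ± 1.09 against 5.93% ± 4.50, SD, n = 4, exact two-sided permutation p = 0.314), with 0.465 points within set 1 and 6.41 points within set 2.

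The raised cytosines of *Foxo1* were not the same in lines 20 and 21. Line 21 had 38.9% to 41.2% at 5 plus-strand cytosines from position 52267611 to 52267654, where 1 opposite-strand cytosine was measured and had 0%. Line 20 had 0% to 2.22% at those cytosines and 17.1% to 23.0% at 4 plus-strand cytosines from 52267378 to 52267476, where line 21 had 0%. Line 20 also had 17.9% to 28% at 4 minus-strand cytosines from 52267655 to 52267699, where line 21 had 0%.

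The measured genes of the pluripotency and the spermatogonia lists, drawn up from general knowledge, had median promoter levels of 5.86% and 5.75%, against 5.64% over all promoters. Their expression in these lines was not examined here. Of the 7 genes on the pluripotency list, 5 were measured. *Sox2*, *Klf2*, *Klf5* and *Foxd3* had promoter levels of 5.86%, 4.61%, 2.03% and 7.04%, and *Klf4* had 11.3%; outside CCGG all 5 were between 1.04% and 2.61%. *Sox2* (ENSMUSG00000074637) averaged 5.77% ± 1.28 for control-F1 and 5.96% ± 1.06 for ICSI-F1 (SD, n = 4, exact two-sided permutation p = 0.8). The 5 differences ran from −1.5 to 0.61 points, with 2 higher and 3 lower in ICSI-F1 lines, and 0 passed limma at an unadjusted p under 0.05.

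Of the 7 genes on the list for spermatogonia and spermatogenesis, 6 were measured, and their levels ran from 1.47% in *Sox5* to 13.6% in *Gata2*. *Foxc2*, a marker of quiescent spermatogonial stem cells, had 7.39% ± 2.92 and 8.72% ± 2.86 (SD, n = 4). *Sox30*, a regulator of spermatid genes, had 7.82% ± 1.99 and 6.76% ± 1.88, and the 3 *Sox3* cytosines had 3.45% ± 3.02 and 2.82% ± 5.63 in control-F1 and ICSI-F1 lines. The 6 differences ran from −1.06 to 3.44 points with a median of 0.01.

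Of the 8 promoters at 20% or more, *Foxo6os* and *Sox15* were on none of the lists. The endoderm list had 4 measured genes with levels of 3.01% to 28.2%, the highest in *Foxa2*, and the heart and mesoderm list had 7 with levels of 3.24% to 21.9%, the highest in *Tbx20*. The gonad somatic list had 5, of which *Gata4* alone was at 20% or more. On the nervous system and neural crest list 6 were measured, with *Sox10*, *Foxd1* and the non-member *Tbr1* at 20% or more. On the blood and immune list 4 of 10 genes were measured, with levels of 3.06% to 13.5%, and on the list for cilia and epithelia 2 of 5, *Foxj1* with 6.41% and *Foxn4* with 7.11%. On all 6 lineage lists 0 promoters had an unadjusted p under 0.05 in limma.

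The labelled cell type was checked on germ cell genes of the same table. *Dazl*, *Ddx4*, *Sycp1*, *Mael*, *Hormad1* and *Piwil2*, expressed in germ cells and commonly methylated in somatic cells, had promoter levels of 2.45% to 9.09%. They are 6 of 12 genes on that list, and *Piwil2* had an unadjusted limma p of 0.0281 (adjusted p = 1). The upstream sites of *H19*, which is methylated on the paternal copy, had 40.2%, with lines between 36.9% and 44.7%, and *Rasgrf1*, also listed as paternally methylated, had 4.19% in its measured promoter. For GS cells of both groups the study reported an androgenetic pattern, which it describes as high methylation at the *H19* differentially methylated region. Whether the *H19* sites measured here lie in that region was not tested. Promoter methylation does not show the share of other cells in a culture, such as feeder cells.

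Hox genes and zinc finger genes of the Zfp, Zscan and Zkscan series were set beside the 62 promoters. The median level was 6.93% over 16 Hox promoters and 5.26% over 191 zinc finger promoters, and outside CCGG it was 2.92% and 2.28%, against 2.29% for the 62 promoters and 2.29% for all. The median within-group SD was 1.98 points for the 62 promoters, 2.42 for Hox, 2.24 for zinc finger and 2.15 for all promoters. The sets were not tested against each other.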

How the data were processed

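RRBS libraries of 8 GS cell lines (Zymo-Seq kit, MspI digestion, paired reads of 150 bp) were sequenced once each. The authors trimmed reads with Trim Galore 0.5.0 in its RRBS mode, aligned them to mm10 with Bismark 0.20.0 and called cytosines with methylKit (1.16.0 in the submitters' processing notes). The deposited table holds, per cytosine and line, scores: methylated, unmethylated and total reads that the authors scaled between lines and rounded, for sites with at least 10 scaled reads in all lines, within 1 kb upstream of an Ensembl release 87 start; strands were kept apart. These scores are not raw counts. Factors of 1.0016 to 1.875 returned whole reads for 100% of values, and the unscaled median coverage over the 62 promoters was 41 to 76 reads per line, which limits counting error only.

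The level was 100 × methylated / (methylated + unmethylated) reads per site, the promoter level the unweighted mean over sites, and the group value the mean of 4 lines. Tests were limma 3.58.1 (R 4.3.3) across all 9224 promoters, the moderated logistic model across sites, both checked on simulated data, and an exact two-sided permutation test over 70 arrangements (smallest p 0.0286). With 7 lines it uses 3 against 4. CCGG was read from GRCm38.p6 (NCBI), where 203644 of 203645 sites were CpGs, and transcripts from GENCODE M21. Named genes were members at 20% or more, with a cytosine past the 20% rule, among the 6 largest differences or 4 largest within-group SDs, past either adjusted test, or on the pluripotency or spermatogonia lists, 24 in all; others were named after their values were seen. The members and lists were chosen with earlier results of these data known. Alternatives covered coverage, strand merging, level definition, library set, thresholds, scales and leaving out each line.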

Additional observations from a re-analysis of the deposited data

Results flagged for a closer look

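Among 66 groups of 4 lines examined for a line far from the other 3, 3 stood apart, and chance alone gives about 1 in 20. The *Foxo6os* promoter had 96.3% in ICSI-F1 line 17, while the other ICSI-F1 lines were at 100%. The *Sox3* promoter had 11.3% in ICSI-F1 line 20, while the other ICSI-F1 lines were at 0% over its 3 cytosines. In these cases the other 3 lines were equal, so a deviation of any size is flagged and the rate of 1 in 20 does not apply. The *Tbx3os2* cytosine at position 119691342 had 46.8% in control-F1 line 45, against 20.6% to 25.0% in the other control-F1 lines. Over all 124 groups of the 62 promoters, 6 stood apart.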

How the results depend on the processing

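No paired analysis was possible because the groups share no replicate numbers. The mean difference kept within 1 SD under all its alternatives and ran from −0.717 to 0.279 points when a line was left out. The adjusted tests gave 0 promoters and 0 cytosines of the 62 genes under every scale, covariate, filter and line left out. With the library set as a covariate, 3 promoters had an unadjusted limma p under 0.05, *Foxa2*, *Foxo1* and *Klf12*, against 495 of all 9224. The 6 cytosines past the 20% rule became 2 at 30 or more scaled reads, 3 with strands merged, 20 and 18 within sets 1 and 2, 31 at 10 points, 0 at 30 points, 0 when the groups were not allowed to overlap, 1 outside CCGG (added after seeing the data) and 3 to 11 without 1 line. The 8 promoters at 20% or more became 2 outside CCGG, 5 with reads summed, 14 at 10%, 4 at 30% and 7 to 9 without 1 line.

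With all 8 lines none of the 24 named differences had an exact permutation p under 0.05. Over all the alternatives for these 24, *Foxa2* without line 44 was the only case under it. There the line left out was the only control-F1 line among the ICSI-F1 lines. Signs of small differences turned as follows, in percentage points. Outside CCGG: *Sox2* −0.376, *Gata4* 4.09, *Foxd1* −0.455, *Foxn3* −0.521, *Tbx3os2* −0.819, *Tbx4* 1.46 and *Gata2* −0.601. At 20 scaled reads: *Sox2* −0.0129 and *Tbx20* −0.358. At 30: *Foxd1* −1.84, *Sox2* −0.27, *Tbx20* −0.358 and *Gata2* −1.78. In set 1: *Foxo6os* −0.563, *Tbx6* −7.98, *Klf4* 0.483, *Gata2* −0.936, *Foxd3* 0.961, *Tbx4* 0.412, *Gata4* 0.439 and *Klf2* −0.205. In set 2: *Tbx3os2* −1.13, *Sox2* −0.379, *Foxn3* −0.743, *Tbx20* −0.361 and *Foxd1* −0.0529. With reads summed: *Sox2* −0.251, *Tbx4* 0.0476, *Tbx20* −1.22, *Gata2* −0.381, *Foxd1* −1.0 and *Foxn3* −0.151. With strands merged: *Tbx20* −0.599 and *Tbx3os2* −0.609. Leaving out 1 line gave −0.957 to 10.9 for *Tbx6*, −0.727 to 1.90 for *Gata2*, −0.362 to 1.05 for *Foxo6os*, −1.87 to 0.590 for *Gata4*, −0.281 to 2.37 for *Tbx20*, −0.468 to 4.77 for *Sox15*, −1.82 to 1.03 for *Tbx4*, −3.89 to 0.136 for *Klf4*, −0.505 to 2.96 for *Tbx3os2*, −0.547 to 0.923 for *Foxn3*, −0.415 to 0.650 for *Sox2*, −2.05 to 0.190 for *Foxd3* and −3.45 to 0.442 for *Sox3*. The causes were not tested.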
